A study of Mus musculus with 12 samples.

Results

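Retinoic acid and IL-1α are both used to provoke the breakdown of aggrecan in cartilage. The comparison described here asked how the cartilage RNA differed between explants treated with one and explants treated with the other. It compared 8 of the 12 arrays of the study, 4 with retinoic acid and 4 with IL-1α. The other 4 arrays, of untreated explants, gave the background and were fitted in the same model. Its estimates of spread thus draw on all 12. Femoral head (hip) cartilage was taken from 21-day-old TS-4/5∆cat mice, which carry in-frame deletions of the catalytic domains of both Adamts4 and Adamts5, the main aggrecan-cleaving proteinases. All groups shared this genotype, the untreated explants included, so nothing here was measured in wild-type cartilage. By the labels, 4 hips went into each well, spent 24 h in medium with 10% fetal bovine serum, and were then cultured for 3 days alone, with 10 µM retinoic acid or with 10 ng/ml IL-1α. The methods describe serum-free culture of unpooled mice and a smaller number of mice per treatment than there are arrays, and this difference between the sources could not be settled. Each treatment had 2 arrays from the Donut line, run as batch 1, and 2 from the Gertrude line, run as batch 2. Line and batch cannot be told apart. The labels number the 2 arrays of a treatment and batch without saying that they came from separate animals, so the spread between them may be technical. The p-values of the treatment comparisons measure that spread together with any unevenness of the effect between batches. Spread between animals of 1 batch is not known to be in them.

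The members were all genes measured on the arrays outside the ADAM, ADAMTS, MMP, cathepsin and calpain families, 14269 of the 14317 genes with a detected probe. Adamts9 was added as a marker of the retinoic acid response. A level is the normalized log2 intensity of a gene's brightest detected probe, or for the leading genes of its probe with the largest difference, a difference of 1 is a doubling, differences are retinoic acid minus IL-1α unless untreated is named (below 0 is higher with IL-1α), and a probe that was not detected reads close to 5. Values of 4 arrays are given in the order of the 2 replicates of batch 1 and then those of batch 2.

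Retinoic acid enters the nucleus and binds receptors of the RAR family, which sit on DNA with RXR partners at pairs of short repeats and turn on genes next to them. Among these genes are the CYP26 enzymes, which destroy retinoic acid, and RARβ itself. In growing cartilage retinoids are known for loss of the chondrocyte's matrix programme. IL-1α binds its receptor on the cell surface and signals through MyD88 and IRAK kinases to NF-κB, which turns on chemokines, acute-phase proteins and nitric oxide synthase, and in cartilage IL-1 is known for stopping matrix synthesis and starting its breakdown.

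Promoter sequence from RefSeq (build GRCm38.p6) gives examples of the kinds of site these pathways use. The promoters shown hold a motif and do not stand for their lists. Of the motifs marked, only the direct repeat and the NF-κB consensus are sites of these pathways. Below are the 200 bases before the start of 5 genes whose levels are described in the following paragraphs, 5′ to 3′ on the strand of the gene. Capitals mark a direct repeat of receptor hexamers in Cyp26a1 and Rarb, both TATAAA boxes in Inmt, and the NF-κB consensus in Cxcl1 and Cxcl2.
Cyp26a1, chr19:37697608-37697807, + strand: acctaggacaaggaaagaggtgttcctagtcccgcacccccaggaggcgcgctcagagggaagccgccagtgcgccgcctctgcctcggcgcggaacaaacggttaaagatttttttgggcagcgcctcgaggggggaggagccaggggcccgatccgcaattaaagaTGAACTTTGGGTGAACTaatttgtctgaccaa
Rarb, chr14:16575477-16575676, - strand: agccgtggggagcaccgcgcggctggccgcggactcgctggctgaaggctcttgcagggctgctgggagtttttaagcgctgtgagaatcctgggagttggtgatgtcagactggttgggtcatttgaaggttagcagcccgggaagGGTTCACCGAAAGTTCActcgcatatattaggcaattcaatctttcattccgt
Inmt, chr6:55174991-55175190, - strand: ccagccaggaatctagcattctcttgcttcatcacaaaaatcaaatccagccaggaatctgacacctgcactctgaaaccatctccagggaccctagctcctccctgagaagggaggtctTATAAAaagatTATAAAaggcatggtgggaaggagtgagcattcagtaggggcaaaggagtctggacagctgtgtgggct
Cxcl1, chr5:90891045-90891244, + strand: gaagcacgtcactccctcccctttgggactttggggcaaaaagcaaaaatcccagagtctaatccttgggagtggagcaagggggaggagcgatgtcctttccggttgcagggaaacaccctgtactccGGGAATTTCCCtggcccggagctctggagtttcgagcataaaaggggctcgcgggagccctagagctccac
Cxcl2, chr5:90903699-90903898, + strand: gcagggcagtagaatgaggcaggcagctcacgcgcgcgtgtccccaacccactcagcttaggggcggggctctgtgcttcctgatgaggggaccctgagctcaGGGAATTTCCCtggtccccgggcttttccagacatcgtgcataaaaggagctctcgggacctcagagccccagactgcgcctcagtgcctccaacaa
The repeat searched was any pair drawn from the unit AGGTCA, the variant AGTTCA, the variant GGGTCA and the variant GGTTCA on one strand with 5 letters between, on both strands, over the 300 bases of each RefSeq promoter. It occurs in 32 of 32851 promoters (0.0974%), while the NF-κB consensus occurs in 8.46% and TATAAA in 13.6%. In Cxcl1 and Cxcl2 the NF-κB match is read on both strands of the same letters. The single hexamer AGGTCA was in 16.3% of promoters, which included those of Saa1, Saa2 and Calca. Of the 10 genes most higher with retinoic acid 8 had promoters in the table and 1 of them, Cyp26a1, held the repeat. Of the 10 most higher with IL-1α 5 had promoters there, and 0 of those held the NF-κB consensus. Promoters of these leading genes were looked up by array symbol, so a renamed gene would count as absent. Of the retinoid handling genes higher with retinoic acid, 2 of the 5 with promoters held the repeat. Of genes higher with IL-1α that had promoters, 2 of 4 CXC and CX3C chemokines and 3 of 11 acute-phase genes held the NF-κB consensus. It was in 0 of 5 CXC and CX3C chemokines higher with retinoic acid. A match is a description of letters and not of a working site.

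Between the 2 treatments, 2283 of 14269 genes (16%) were higher with retinoic acid and 2341 (16.4%) were higher with IL-1α at an adjusted p under 0.05. These shares are the background for the counts of every list below. Retinoic acid took 49.4% of the calls, and with the arrays scaled to 1 median in place of quantile normalization it took 65.7%. Differences over 1 were called for 724 genes with retinoic acid and 540 with IL-1α, and differences over 3 for 50 and 37. Against untreated explants, retinoic acid raised 2654 genes (18.6%) and lowered 2579 (18.1%), while IL-1α raised 2160 (15.1%) and lowered 2139 (15%). Both of those comparisons use the same untreated arrays. A gene that was detected only in the treatment where it is high had to differ to be counted, so counts are also given for the 9430 genes detected on all 12 arrays, of which 1560 (16.5%) were higher with retinoic acid and 1777 (18.8%) with IL-1α. The 4 arrays of each treatment did not overlap for 2684 genes (18.8%). The arrays detected between 13786 and 19485 probes, most on an untreated array of batch 2. Across all kept probes, arrays of the same treatment and batch correlated between 0.983 and 0.995, arrays of different treatments in the same batch between 0.932 and 0.968, and those of 1 treatment across batches between 0.868 and 0.902. Several cartilage genes were bright: the untreated means of Acan, Matn1, Comp, Col2a1, Sox9 and Prg4, each by its brightest probe, lay between 13.15 and 13.88. The highest value of the scale was 14.24. Not all cartilage markers lay there, and Col11a1 was well below this range untreated, at the values given with the cartilage collagens. In RNA from a whole explant, fewer cells of a type and less RNA per cell cannot be told apart.

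Inmt, an indolethylamine N-methyltransferase, separated the treatments most of all members. Its level was 13.02, 13.02, 13.22 and 13.29 with retinoic acid, 4.61, 4.70, 4.64 and 4.56 with IL-1α and 4.56, 4.48, 4.66 and 4.97 untreated. All 4 retinoic acid arrays were high, and the probe was undetected on every IL-1α array and on 3 of 4 untreated arrays. The difference was 8.51 (SE 0.12, adjusted p = 1.09e-13), at least 236-fold because the IL-1α side is only a bound. It was 8.37 in batch 1 and 8.65 in batch 2. The exact permutation p over the 8 arrays was 0.0286, the smallest that 4 against 4 arrays can give, and this holds for every gene below whose treatments do not overlap. That permutation moved arrays across batches and took no account of batch. Kept within batches it would have fewer arrangements, and its smallest p would be larger.

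Cyp26a1, the retinoic acid hydroxylase whose promoter is shown above, was at 9.06, 9.14, 9.79 and 9.55 with retinoic acid, 4.91, 5.03, 4.62 and 4.53 with IL-1α and 4.64, 4.61, 4.65 and 4.53 untreated. It was detected on the 4 retinoic acid arrays and on no other, at least 17.5-fold higher than with IL-1α (log2 difference 4.61, SE 0.17, adjusted p = 8.83e-10). Igfbp2, which binds insulin-like growth factors in the extracellular space, followed the same pattern with 8.39, 8.48, 8.62 and 8.80 on the retinoic acid arrays and no detection elsewhere (at least 9.98-fold, log2 difference 4.02, SE 0.12, adjusted p = 1.12e-10). A further group of leading genes was detected in untreated cartilage, raised by retinoic acid and lowered by IL-1α. Midkine (Mdk), a heparin-binding growth factor, read 10.86, 11.02, 10.41 and 10.92 with retinoic acid, 6.67, 6.63, 6.32 and 6.42 with IL-1α and 7.84, 8.02, 7.59 and 7.66 untreated. Its 3 groups did not overlap, and the treatments differed by 4.29 (SE 0.12, adjusted p = 8.05e-11). Slco2b1, an organic anion transporter, differed by 4.48, the tight-junction protein gene Cldn10 by 4.54, the fibrillin-binding Thsd4 by 4.39 and the matrix protein gene Sned1 by 4.07, and each of these 4 was above untreated with retinoic acid ( 2.94, 2.33, 2.46 and 2.31) and below it with IL-1α (-1.54, -2.20, -1.93 and -1.76). Other detected probes of Cldn10 and Sned1 did not follow: 1 of the 4 detected probes of Cldn10 and 1 of the 2 of Sned1 stayed low in all groups. Gdpd5, a glycerophosphodiester phosphodiesterase, was 4.07 higher with retinoic acid and Dio2, which converts thyroxine to the active thyroid hormone, 4.05, while their IL-1α levels differed from untreated by 0.11 (adjusted p = 0.614) and -0.68 (adjusted p = 0.184). Adamts9, the marker from the proteinase families, was at 10.71, 10.66, 11.45 and 11.75 with retinoic acid against 6.40, 6.76, 7.35 and 7.57 with IL-1α, a difference of 4.12 (adjusted p = 1.38e-10) that was 4.10 and 4.14 in the batches. Dimmer probes of Adamts9 did not pass the detection filter and were less even. Their differences in batch 1 and batch 2 were 0.295 and 2.174 for 1 probe and 0.07 and 0.60 for another.

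**Figure D1:**
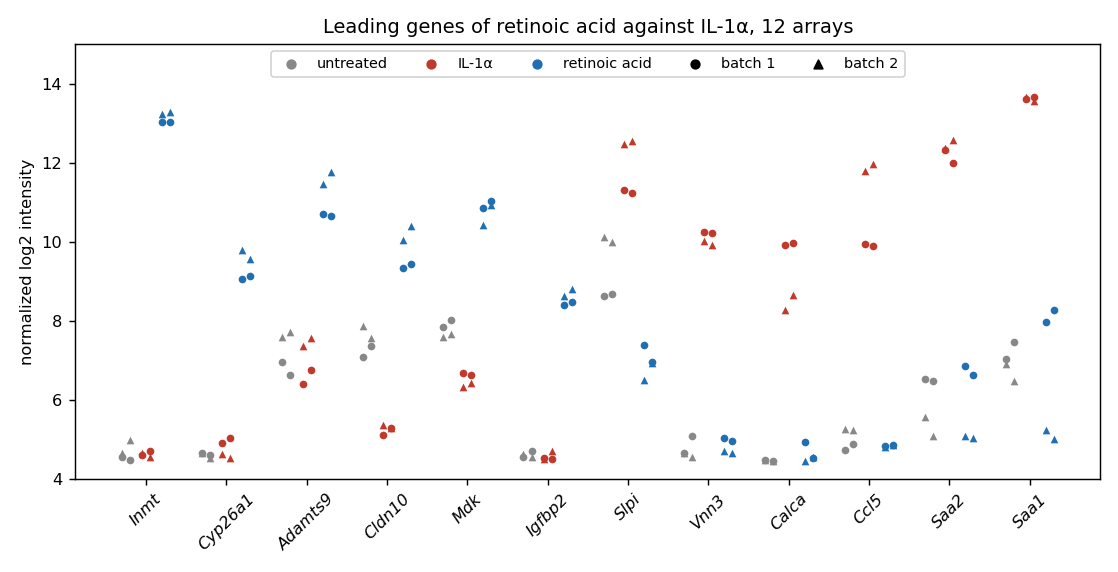
Normalized log2 intensity (vertical axis) of 12 of the leading genes and markers, 1 point an array, for untreated, IL-1α and retinoic acid explants, with circles for batch 1 and triangles for batch 2. Inmt reads 13.02 to 13.29 with retinoic acid and 4.56 to 4.70 with IL-1α, and Saa1 reads 13.56 to 13.65 with IL-1α and 5.01 to 8.26 with retinoic acid.

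On the IL-1α side the leading genes were serum amyloid A. Saa1, an acute-phase apolipoprotein, read 7.97, 8.26, 5.24 and 5.01 with retinoic acid, 13.62, 13.65, 13.65 and 13.56 with IL-1α and 7.02, 7.47, 6.91 and 6.47 untreated. The IL-1α arrays were all near the top of the scale, and the retinoic acid arrays lay just above untreated in batch 1 and below it in batch 2. The difference was -7.00 (SE 0.46, adjusted p = 1.03e-07), -5.53 in batch 1 and -8.48 in batch 2, and this gap between batches passed the test of the difference itself (adjusted p = 1.25e-05). Saa2 followed with -6.42 (adjusted p = 9.08e-09). Saa1 and Saa2 are near-identical copies, so probes for either may bind both.

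Ccl5, a chemokine that draws T cells and monocytes, was at 4.83, 4.86, 4.81 and 4.86 with retinoic acid, 9.93, 9.90, 11.78 and 11.96 with IL-1α and 4.73, 4.88, 5.26 and 5.24 untreated. It was detected on every IL-1α array and on no retinoic acid array, at least 52.1-fold (log2 difference -6.05, SE 0.30, adjusted p = 1.11e-08). Vnn3, a member of the vanin pantetheinase family, was detected only with IL-1α, at 10.25, 10.22, 10.02 and 9.92 (at least 30.2-fold, difference -5.27, adjusted p = 1.2e-11). Calca, which encodes calcitonin and CGRP, likewise read 9.91, 9.97, 8.28 and 8.65 with IL-1α (at least 16.2-fold, difference -4.60, adjusted p = 2.3e-08), and here batch 1 was the higher. A dimmer probe of Calca that did not pass the detection filter had the opposite batch order, with 4.65, 4.76, 6.61 and 7.35 with IL-1α. Slpi, a secreted inhibitor of neutrophil elastase, moved away from untreated in both directions, with 7.38, 6.96, 6.50 and 6.94 with retinoic acid, 11.31, 11.24, 12.48 and 12.55 with IL-1α and 8.63, 8.67, 10.12 and 9.98 untreated. The 3 groups did not overlap, and the treatments differed by -4.95 (SE 0.31, adjusted p = 7.97e-08). Against untreated, Slpi fell with retinoic acid (-2.41, adjusted p = 5.61e-05) and rose with IL-1α (2.54, adjusted p = 7.03e-05).

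Not all of the leading IL-1α genes were raised by IL-1α. The zinc finger gene Zcchc5 read 4.58, 4.69, 5.26 and 4.99 with retinoic acid, 9.03, 9.01, 10.11 and 9.85 with IL-1α and 9.70, 9.77, 10.75 and 11.06 untreated, so that IL-1α was -0.82 and retinoic acid -5.44 against untreated. A probe of Col2a1, the main collagen of cartilage, was at 6.90 with retinoic acid, 11.20 with IL-1α and 11.83 untreated (mean of n = 4 arrays), a difference of -4.31 (adjusted p = 1.23e-10) set by the fall with retinoic acid. The other probes of Col2a1, which are brighter and near the top of the scale, gave -1.22 and -1.77. Nos2, the inducible nitric oxide synthase, was detected only with IL-1α (8.89, 8.89, 8.94 and 9.02, at least 13.4-fold, difference -3.98), with a second probe that rose by less, and Orm1, an acute-phase lipocalin, was at 9.01, 9.0, 8.39 and 8.59 with IL-1α and undetected with retinoic acid (at least 11.8-fold, difference -3.96).

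**Figure D2:**
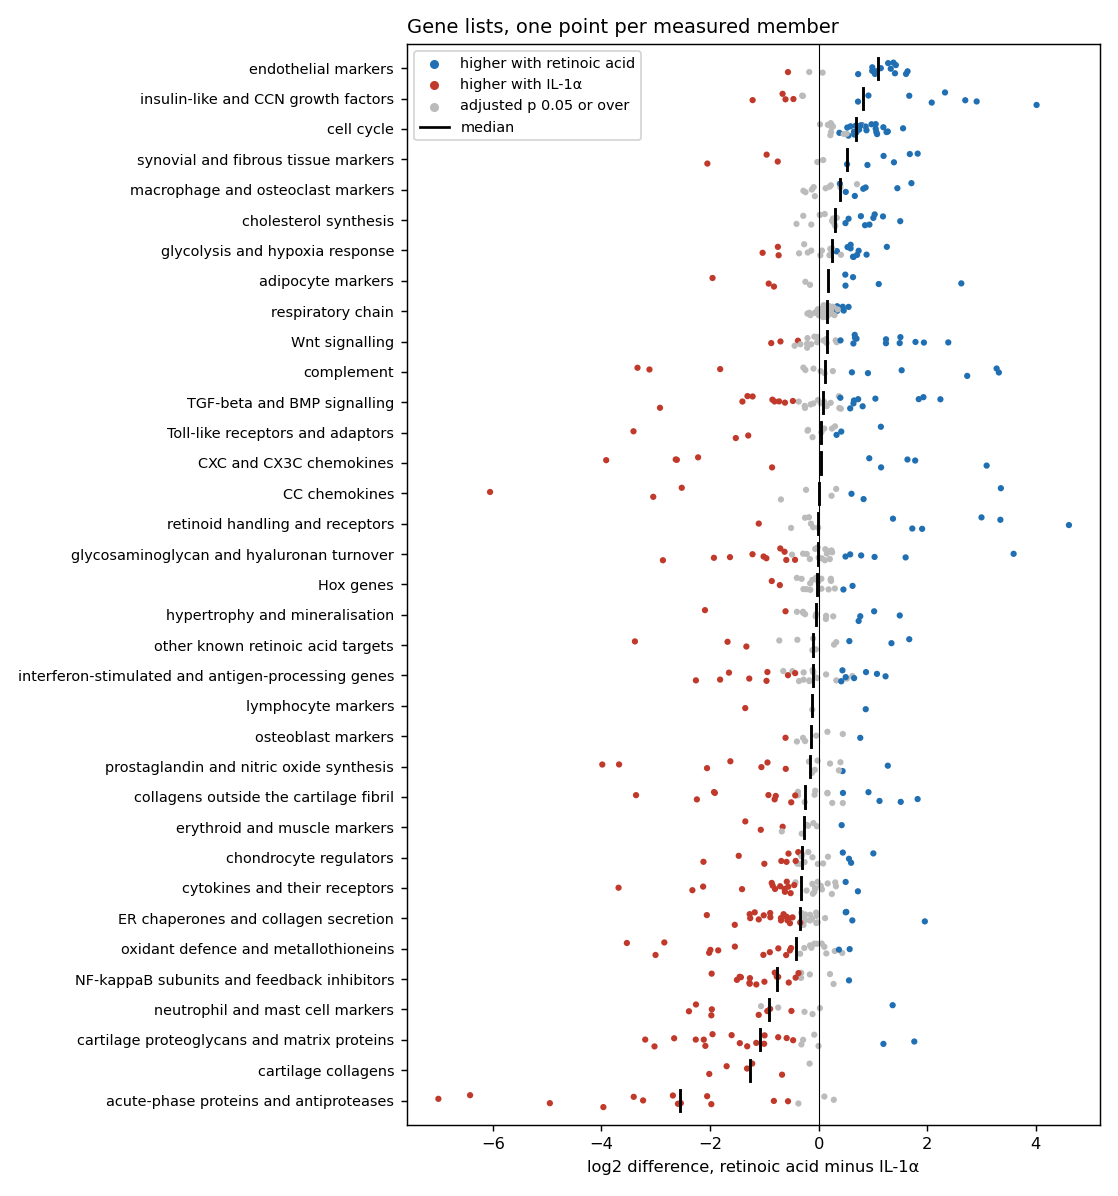
Log2 difference of retinoic acid minus IL-1α for every detected member of the gene lists, 1 point a gene, with called genes marked by direction and the list median drawn. The acute-phase list has a median of -2.56 and the cell cycle list one of 0.68, beside -0.03 over all 14269 genes.

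Of 13 detected genes for retinoid handling and receptors, 6 were higher with retinoic acid, 1 was higher with IL-1α and the median difference was -0.01. Among the 5 detected on every array, 2 were higher with retinoic acid and 1 with IL-1α. Beside Cyp26a1, its relative Cyp26b1 went from 9.81 untreated to 13.75 with retinoic acid and 10.40 with IL-1α (difference 3.35, adjusted p = 2.37e-09). Rarb, the receptor gene whose promoter is shown above, was at 6.65, 6.33, 9.0 and 8.64 with retinoic acid, 4.58, 4.74, 4.58 and 4.71 with IL-1α and 4.67, 4.73, 4.61 and 4.93 untreated. It was undetected on all IL-1α arrays, and the retinoic acid arrays of batch 2 were higher than those of batch 1. The bound was at least 5.29-fold (log2 difference 3.0, SE 0.39, adjusted p = 6.46e-05), with 1.83 and 4.17 in the batches and an adjusted p of 4.55e-05 for the difference between them. Dhrs3, which reduces retinal and so slows retinoic acid synthesis, was higher by 1.91 (adjusted p = 3.84e-07) and Stra6, a membrane receptor that takes up retinol, by 1.73 (adjusted p = 4.21e-06). Stra6 and Dhrs3 were undetected with IL-1α (at least 1.97-fold and at least 2.83-fold). Rxra, the partner receptor, was the gene higher with IL-1α (difference -1.10, adjusted p = 0.000735). Of the 13 genes, 6 were above untreated with retinoic acid and 2 with IL-1α.

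Other genes known as retinoic acid targets did not lean one way, with 3 higher with retinoic acid and 3 with IL-1α of 13 detected (median -0.10). Each share was 23.1%, beside 16% and 16.4% of all genes. The transcription factor Gata6 was higher with retinoic acid by 1.67 (adjusted p = 4.58e-07). The adhesion molecule Icam1, which NF-κB also controls, was higher with IL-1α at 13.07, 13.03, 13.03 and 12.67, against 10.20, 10.18, 8.87 and 9.02 with retinoic acid and 10.23, 9.95, 10.07 and 9.86 untreated (difference -3.38, adjusted p = 6.85e-08). Lefty1, an inhibitor of Nodal signalling, was -1.33, and the retinoid-responsive carboxypeptidase inhibitor homologue Rarres1 was lowered by both treatments and more by retinoic acid (-2.67 against -0.99 from untreated, difference -1.68, adjusted p = 2.1e-05). Among the Hox genes, which set position along the body and limb, 2 of 20 were higher with retinoic acid, Hoxa5 (0.63) and Hoxc9 (0.46), and 2 with IL-1α, Hoxd9 (-0.86) and Hoxd8 (-0.71). Both Hox shares, 10% each way, were below those of all genes. The Hoxd8 call was lost with median scaling (adjusted p = 0.0613).

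Acute-phase proteins and antiproteases were higher with IL-1α in 13 of 16 detected genes and with retinoic acid in 0, with a median difference of -2.56. Of the 10 detected on all arrays, 7 were higher with IL-1α. IL-1α raised 11 of the list above untreated and retinoic acid lowered 7. Haptoglobin (Hp), which binds free haemoglobin, read 11.31, 11.49, 10.33 and 10.13 with retinoic acid, 13.73, 13.54, 13.37 and 13.35 with IL-1α and 11.92, 11.87, 11.37 and 11.12 untreated. By this brightest probe of Hp the IL-1α arrays were above all others and retinoic acid was below untreated within each batch. The difference was -2.68 (SE 0.17, adjusted p = 7.43e-08). A dimmer detected probe of Hp gave a difference of -3.91 (adjusted p = 6.39e-08). Its retinoic acid arrays were above untreated in batch 1 and below it in batch 2. For that probe retinoic acid did not pass the test against untreated (-0.52, adjusted p = 0.115). Steap4, a metalloreductase of inflamed tissue, was higher with IL-1α with a difference of -3.23 (adjusted p = 3.05e-07), and pentraxin 3 (Ptx3), a soluble pattern receptor, with one of -2.59 (adjusted p = 6.2e-07). Lipocalin 2 (Lcn2), which takes up bacterial iron carriers, gave a difference of -1.98 (adjusted p = 0.000256) and lay near the top of the scale with IL-1α. For Serpina3n, an antiprotease, the difference of -2.54 (adjusted p = 3.24e-08) came with a fall against untreated in both treatments, -3.17 with retinoic acid and -0.63 with IL-1α.

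The chemokines split. Of 10 detected CC chemokines 3 were higher with retinoic acid and 3 with IL-1α, and of 10 CXC and CX3C chemokines the counts were 5 and 5. The CXC count for retinoic acid was 3 when either retinoic acid array of batch 2 was left out. With IL-1α the neutrophil attractant Cxcl1 was at 13.86, 14.04, 13.75 and 13.81, against 12.29, 12.47, 9.98 and 10.19 with retinoic acid and 10.77, 10.98, 10.14 and 9.70 untreated. Its IL-1α arrays stood apart from all others, the retinoic acid arrays did so from untreated only in batch 1, and the difference was -2.63 (SE 0.32, adjusted p = 3.56e-05), -1.57 and -3.69 in the batches. Cxcl2, the neighbouring gene with the same consensus in its promoter, read 4.90, 4.90, 5.39 and 5.36 with retinoic acid, 7.37, 7.54, 10.50 and 10.79 with IL-1α and 4.52, 4.64, 5.47 and 4.96 untreated. It was high with IL-1α alone, more so in batch 2, and differed by -3.91 (SE 0.45, adjusted p = 1.75e-05). The monocyte attractants Ccl7 (difference -3.05, adjusted p = 1.74e-08) and Ccl2 (difference -2.52, adjusted p = 9.11e-09) were both raised by IL-1α and lowered by retinoic acid against untreated.

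On the other side stood Cxcl12, which holds blood progenitors and endothelial cells through CXCR4. Its level was 11.72, 11.70, 12.83 and 12.66 with retinoic acid, 9.40, 9.37, 8.89 and 8.86 with IL-1α and 10.08, 10.28, 10.60 and 10.64 untreated. The groups did not overlap, with a rise over untreated of 1.83 under retinoic acid against -1.27 under IL-1α, a difference of 3.10 (SE 0.24, adjusted p = 5.69e-07). The eosinophil attractant Ccl24 was detected with retinoic acid only, at 7.51, 7.37, 8.29 and 8.44 (at least 6.29-fold, difference 3.36, adjusted p = 2.05e-08), as was Cxcl15, a chemokine best known from lung, at 6.49, 6.30, 5.91 and 6.01 (at least 1.9-fold, difference 1.64, adjusted p = 4.65e-07). Platelet basic protein (Ppbp), whose promoter also held the direct repeat, was higher by 1.78 (adjusted p = 5.28e-05), and the myeloid chemokines Ccl6 and Ccl9 by 0.83 (adjusted p = 0.0027) and 0.61 (adjusted p = 0.00255).

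Of 30 cytokines and receptors 14 were higher with IL-1α and 2 with retinoic acid, with a median of -0.32. With median scaling the IL-1α count was 8. Il1rl1, the receptor for IL-33, gave the largest difference of the list at -3.69 (adjusted p = 1.6e-09), and all of it lay in a fall with retinoic acid: IL-1α was at 10.67 and untreated at 10.67, against 6.99. Leukaemia inhibitory factor (Lif), a cytokine of the IL-6 family, was at 8.18, 8.25, 8.04 and 8.27 with IL-1α and 5.78, 5.90, 5.90 and 5.86 with retinoic acid (difference -2.33, adjusted p = 5.97e-09). The granulocyte growth factor Csf3 was detected with IL-1α only (difference -2.13, adjusted p = 3.53e-05, at least 2.94-fold). Il1rn, the natural antagonist of the IL-1 receptor, was higher with IL-1α with a difference of -1.41 (adjusted p = 3.72e-05), and Il18bp, which neutralises IL-18, was higher with retinoic acid by 0.72 (adjusted p = 0.00821).

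Genes of NF-κB itself and its inhibitors were higher with IL-1α in 15 of 21, against 1 with retinoic acid, at a median of -0.77. Among the 15 detected on all arrays the count was 11, and IL-1α raised 17 of the list above untreated. The kinase Map3k8, which links NF-κB to the MAP kinases, differed by -1.97 (adjusted p = 3.07e-08), the nuclear inhibitor Nfkbiz by -1.5 (adjusted p = 1.76e-05) and the adaptor Traf1 by -1.45 (adjusted p = 1.84e-06). The exception was Tnfaip3, the deubiquitinase A20 that shuts the pathway off. It was above untreated with both treatments, by 1.40 with retinoic acid and 0.84 with IL-1α, and higher with retinoic acid by 0.56 (adjusted p = 0.0106). Its promoter and those of 5 of the 10 NF-κB list genes higher with IL-1α that have one in the table held the NF-κB consensus, as did those of Cyp26b1 and Stra6.

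Toll-like receptors and adaptors counted 3 and 3 of 13, 23.1% each way beside 16% and 16.4% of all genes. Tlr2, which senses bacterial lipopeptides, read 7.45, 7.43, 7.33 and 7.22 with retinoic acid, 10.39, 10.56, 11.28 and 10.84 with IL-1α and 9.54, 9.70, 9.26 and 9.59 untreated. Its groups stood apart in both directions from untreated, with a difference of -3.41 (SE 0.18, adjusted p = 1.49e-08). Cd14, the co-receptor for lipopolysaccharide, was above untreated with both and more with IL-1α (difference -1.52, adjusted p = 8.1e-06), and the inhibitory kinase Irak3 was higher with IL-1α with a difference of -1.30 (adjusted p = 4.66e-06). Tlr5, the flagellin receptor, was lost from detection with IL-1α and lay at 6.17 with retinoic acid and 6.29 untreated (difference 1.15, adjusted p = 0.00028, at least 1.89-fold).

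For prostaglandin and nitric oxide synthesis, 7 of 16 genes were higher with IL-1α and 2 with retinoic acid, at a median of -0.15. The arginine route to nitric oxide accounted for the largest of these: beside Nos2, the arginine carrier Slc7a2 gave a difference of -3.68 (adjusted p = 3.6e-07) and argininosuccinate synthase (Ass1), which rebuilds arginine, -2.06 (adjusted p = 6.83e-08). Ass1 was not raised by IL-1α (0.14 against untreated, adjusted p = 0.451) and fell with retinoic acid (-1.92 against untreated, adjusted p = 1.31e-07). Arginase (Arg1), which uses arginine for ornithine, was higher with retinoic acid (difference 1.28, adjusted p = 0.0013).

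Oxidant defence genes were higher with IL-1α in 13 of 26 and with retinoic acid in 2 (median -0.42). Extracellular superoxide dismutase (Sod3) read 7.05, 6.85, 6.69 and 7.12 with retinoic acid, 10.22, 10.26, 10.69 and 10.67 with IL-1α and 8.17, 8.14, 8.34 and 8.68 untreated. The groups did not overlap, and the difference was -3.53 (SE 0.14, adjusted p = 1.27e-09). The cystine carrier Slc7a11, which feeds glutathione synthesis, differed by -3.0 (adjusted p = 1.28e-07) and metallothionein 2 (Mt2) by -2.84 (adjusted p = 7.73e-07). Mitochondrial Sod2 (-2.02), the quinone reductase Nqo1 (-1.99) and haem oxygenase Hmox1 (-1.85) were also higher with IL-1α, while the peroxiredoxin Prdx2 was higher with retinoic acid (difference 0.57, adjusted p = 0.00184).

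Complement split by component. Of 15 detected genes 6 were higher with retinoic acid and 3 with IL-1α. All 3 chains of C1q, the recognition unit that macrophages make, were higher with retinoic acid: C1qb read 10.17, 10.24, 9.89 and 9.87 with retinoic acid, 7.63, 7.48, 5.96 and 5.81 with IL-1α and 8.93, 9.02, 8.25 and 7.95 untreated. The groups did not overlap, and C1qb differed by 3.32 (SE 0.22, adjusted p = 1.11e-07), C1qc by 3.28 and C1qa by 2.74, each above untreated with retinoic acid and below it with IL-1α. The 3 higher with IL-1α were C3, the central component (difference -3.34, adjusted p = 6.01e-05), factor B (Cfb) of the alternative pathway (difference -3.12, adjusted p = 1.32e-05) and the protease C1s (difference -1.81, adjusted p = 5.73e-06). C3 was -1.84 in batch 1 and -4.83 in batch 2.

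Interferon-stimulated and antigen-processing genes gave 7 and 8 of 32 (median -0.10). That is 21.9% and 25%, beside 16% and 16.4% of all genes. The immunoproteasome subunits Psmb10 and Psmb8 were higher with retinoic acid (difference 1.23, adjusted p = 1.7e-05, and difference 1.08, adjusted p = 9.04e-05), as was the transcription factor Irf5 (difference 0.87, adjusted p = 0.000668). The exonuclease Isg20 (difference -2.26, adjusted p = 2.86e-07), the MHC class II chain H2-Eb1 (difference -1.81, adjusted p = 2.15e-05, at least 2.95-fold) and the peptide transporter Tap1 (difference -1.65, adjusted p = 0.000184) were higher with IL-1α. For Isg20 the IL-1α level was 0.22 from untreated (adjusted p = 0.334) and the retinoic acid level -2.04.

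The genes of cartilage matrix were lower with retinoic acid than with IL-1α. Of 22 detected proteoglycans and matrix proteins 16 were higher with IL-1α and 2 with retinoic acid, at a median difference of -1.08, and of the 14 detected on all arrays the counts were 10 and 1. Both treatments stood below untreated: retinoic acid lowered 19 of the 22 and IL-1α 14, and 0 were raised by either. Aggrecan (Acan), the large proteoglycan that holds water in the tissue, read 9.06, 9.13, 9.05 and 8.92 with retinoic acid, 11.53, 11.34, 12.03 and 11.90 with IL-1α and 13.15, 13.30, 13.13 and 13.47 untreated. The 3 groups did not overlap, with retinoic acid -4.22 and IL-1α -1.56 from untreated, and the treatments differed by -2.66 (SE 0.15, adjusted p = 3.24e-08). Matrilin 1 (Matn1), an adaptor of the collagen fibril, was at 8.38, 8.15, 8.46 and 8.43 with retinoic acid, 11.24, 11.16, 11.91 and 11.89 with IL-1α and 13.20, 13.35, 13.52 and 13.37 untreated. Again no group overlapped another, and the difference was -3.19 (SE 0.14, adjusted p = 3.43e-09).

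Link protein (Hapln1), which ties aggrecan to hyaluronan, differed by -2.09 (adjusted p = 2.41e-08). Its levels were higher in batch 2 for every treatment, so the retinoic acid arrays of batch 2 were above the IL-1α arrays of batch 1. Comp, which bridges collagens, gave a difference of -1.95 (adjusted p = 5.22e-08), with IL-1α -0.29 from untreated (adjusted p = 0.0784), and Ucma, a protein of the upper growth plate, was undetected with retinoic acid (difference -3.02, adjusted p = 0.00193, at least 5.11-fold), -1.11 in batch 1 and -4.94 in batch 2. Lubricin (Prg4), the joint surface lubricant, moved little (difference -0.59, adjusted p = 0.00139) and lay near the ceiling of the scale in every group. Cilp2, an intermediate-layer protein, went the other way (difference 1.76, adjusted p = 3.85e-06), with IL-1α -1.64 from untreated (adjusted p = 1.68e-05) and retinoic acid 0.12 (adjusted p = 0.618).

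Among the 6 cartilage collagens 5 were higher with IL-1α and 0 with retinoic acid (median -1.27). Retinoic acid lowered 5 of them below untreated and IL-1α 4. Col11a1, which sets fibril thickness, read 4.76, 5.48, 6.68 and 6.44 with retinoic acid, 6.93, 6.90, 9.03 and 8.56 with IL-1α and 7.11, 7.45, 10.23 and 9.90 untreated. Levels with retinoic acid were the lowest in each batch, and the difference was -2.01 (SE 0.23, adjusted p = 1.94e-05). Col9a1 and Col9a2, which coat the fibril, differed by -1.69 (adjusted p = 5.96e-06) and -1.32 (adjusted p = 4.86e-06), and their treatments overlapped across batches though not within them. Col10a1, the collagen of hypertrophic chondrocytes, fell with both treatments, -1.99 with retinoic acid and -1.71 with IL-1α, and the difference between them, -0.28, did not pass the test (unadjusted 95% interval -0.56 to -0.01, adjusted p = 0.112).

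**Figure D3:**
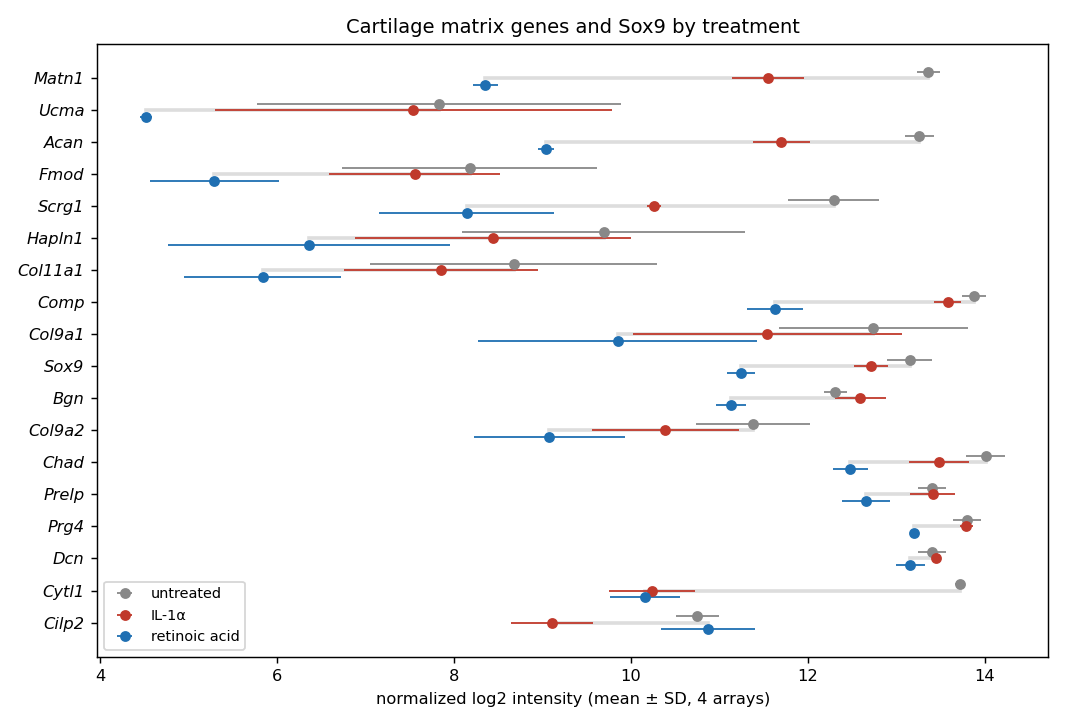
Normalized log2 intensity (horizontal axis) of cartilage matrix genes and Sox9 in untreated, IL-1α and retinoic acid explants, as the mean with a bar for the SD over 4 arrays, which holds the spread between batches. Aggrecan (Acan) falls from 13.26 untreated to 11.70 with IL-1α and 9.04 with retinoic acid, and Prg4 stays between 13.20 and 13.80.

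Chondrocyte regulators were higher with IL-1α in 8 of 23 (34.8%) and with retinoic acid in 4 (17.4%), at a median of -0.31. The retinoic acid share was near the 16% of all genes. The IL-1α count was 4 with median scaling. Sox9, the transcription factor that drives the collagen II and aggrecan genes, read 11.36, 11.39, 11.11 and 11.09 with retinoic acid, 12.88, 12.73, 12.79 and 12.44 with IL-1α and 13.31, 13.43, 13.01 and 12.88 untreated. Within each batch the order from high to low was untreated, IL-1α and retinoic acid, and the treatments differed by -1.47 (SE 0.12, adjusted p = 5.93e-07). The transcription factors Foxa3 (difference -2.12, adjusted p = 1.09e-07) and Trps1 (difference -1.0, adjusted p = 0.00108) kept the same order of means. Higher with retinoic acid were Pthlh, the signal that holds chondrocytes from hypertrophy (difference 1.01, adjusted p = 0.00034), Ihh, its partner in the growth plate (difference 0.60, adjusted p = 0.00483), and Runx1, a Runt-family transcription factor (difference 0.56, adjusted p = 0.00765). Ihh lay below untreated with both treatments (-1.80 and -2.40), and Runx1 above it with both (1.69 and 1.13).

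Of 15 genes of hypertrophy and mineralisation 4 (26.7%) were higher with retinoic acid and 2 (13.3%) with IL-1α, beside 16% and 16.4% of all genes. Ank, which exports pyrophosphate, was above untreated with retinoic acid and below it with IL-1α (difference 1.5, adjusted p = 3.15e-07), and alkaline phosphatase (Alpl), which destroys pyrophosphate, gave a difference of 1.02 (adjusted p = 0.00294), 1.69 in batch 1 and 0.35 in batch 2. Vegfa, the main vessel growth factor, was higher by 0.74 (adjusted p = 0.000418) and Phex, an endopeptidase gene of phosphate balance, by 0.77 (adjusted p = 0.00249). The channel protein gene Panx3 fell with both treatments, reading 7.52 against 9.61 with IL-1α and 12.07 untreated (difference -2.09, adjusted p = 2.85e-05).

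Collagens outside the cartilage fibril were higher with retinoic acid in 5 of 23 and with IL-1α in 9 (median -0.26). Col27a1, a fibrillar collagen of growth cartilage, differed most, by -3.36 (adjusted p = 1.31e-08). All 3 chains of collagen VI, which forms the coat around the chondrocyte, were lower with retinoic acid, with differences of -2.24 (adjusted p = 3.43e-08) for Col6a2, -1.93 (adjusted p = 4.08e-06) for Col6a3 and -1.91 (adjusted p = 3.67e-07) for Col6a1, while IL-1α changed none of them from untreated at the threshold (0.30, -0.33 and 0.23, adjusted p = 0.101, 0.204 and 0.25). Col4a5 of basement membranes (difference 1.82, adjusted p = 4.57e-08), Col8a1 of vessel walls (difference 1.51, adjusted p = 9.4e-05) and the fibril-associated Col14a1 (difference 1.12, adjusted p = 7.8e-05) were higher with retinoic acid.

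For glycosaminoglycan and hyaluronan turnover the counts were 6 and 10 of 31, 19.4% and 32.3% beside 16% and 16.4% of all genes. Cemip, which binds hyaluronan and takes part in its breakdown, led the retinoic acid side with 13.67, 13.69, 13.27 and 13.23 with retinoic acid, 10.23, 10.01, 9.45 and 9.79 with IL-1α and 11.71, 11.29, 10.07 and 10.56 untreated. All retinoic acid arrays were above all others, the IL-1α and untreated arrays overlapped across batches, and the difference of 3.59 (SE 0.17, adjusted p = 6.86e-09) was 3.56 in batch 1 and 3.63 in batch 2. The sulfotransferase Chst15, which adds a further sulfate to chondroitin sulfate, was higher with retinoic acid by 1.6 (adjusted p = 8.23e-07) and the hyaluronidase Hyal2 by 1.03 (adjusted p = 1.47e-05). Extl1, of the heparan sulfate exostosin family, gave a difference of -2.87 (adjusted p = 4.71e-08) and xylosyltransferase Xylt1, which starts each glycosaminoglycan chain, was undetected with retinoic acid (difference -1.93, adjusted p = 7.97e-08, at least 2.87-fold). In neither did the IL-1α level pass the test against untreated (0.07 and -0.16, adjusted p = 0.789 and 0.365). The hyaluronan receptor Cd44 was higher with IL-1α with a difference of -1.63 (adjusted p = 2.45e-07), and its retinoic acid level was 0.01 from untreated (adjusted p = 0.941).

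In TGF-β and BMP signalling 10 of 32 genes were higher with retinoic acid and 9 with IL-1α. Among the ligands, Bmp7 was higher with retinoic acid (difference 2.25, adjusted p = 3.94e-07), with 2.61 against untreated, and Gdf10 was higher (difference 1.85, adjusted p = 3.19e-06) with a fall with IL-1α (-2.49). Gdf15, a stress-induced ligand, read 8.35, 8.36, 8.0 and 8.15 with retinoic acid, 11.93, 11.83, 10.29 and 10.50 with IL-1α and 7.40, 7.28, 7.61 and 7.05 untreated. IL-1α arrays were high throughout, retinoic acid arrays lay between them and untreated, and the difference was -2.92 (SE 0.26, adjusted p = 1.73e-06). Bmp3, an antagonist of the other BMPs, gave a difference of -1.31 (adjusted p = 8.74e-06), and the latent TGF-β binding protein gene Ltbp2 gave a difference of -1.40 (adjusted p = 1.06e-05). Id3, a target of BMP signalling, was higher with retinoic acid (difference 1.93, adjusted p = 1.02e-07).

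Of 29 Wnt pathway genes 12 were higher with retinoic acid and 3 with IL-1α (median 0.15). Among the 16 detected on all arrays the counts were 4 and 3, and without the second retinoic acid array of batch 2 the count for retinoic acid was 7. The secreted Dickkopf family member Dkk3 differed by 2.39 (adjusted p = 7.73e-07) and the Wnt-binding inhibitor Sfrp1, undetected with IL-1α, by 1.94 (adjusted p = 5.54e-08, at least 3.24-fold). Among ligands Wnt4 was higher with retinoic acid (difference 1.79, adjusted p = 1.77e-05, at least 2.1-fold), and Wnt9a (difference -0.87, adjusted p = 0.00424) and Wnt5b (difference -0.70, adjusted p = 0.00172) with IL-1α. The Wnt9a call was lost with median scaling (adjusted p = 0.0519). IL-1α lowered 11 of the list below untreated and retinoic acid raised 12.

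Insulin-like and CCN growth factor genes were higher with retinoic acid in 8 of 14 and with IL-1α in 4 (median 0.82). Ccn5, a matricellular protein without the growth factor-binding C-terminal domain of its family, read 13.42, 13.40, 13.65 and 13.63 with retinoic acid, 10.67, 10.73, 10.44 and 10.60 with IL-1α and 11.35, 11.44, 11.15 and 11.43 untreated. The groups did not overlap, and the difference was 2.91 (SE 0.12, adjusted p = 2.86e-09). Igf1, an anabolic factor for cartilage, was higher with retinoic acid by 2.70 (adjusted p = 8.68e-08), above untreated with it (1.06) and below with IL-1α (-1.65). Its carrier Igfbp3 followed with 2.33 (adjusted p = 2.98e-06), beside Igfbp2 above. Igf2r, which clears IGF-II, was higher with IL-1α (difference -1.22, adjusted p = 3.05e-05), as was Ccn4 (difference -0.61, adjusted p = 0.0053). With median scaling the IL-1α count was 2 and the Ccn4 call was lost (adjusted p = 0.0853), and the count was also 2 without the second retinoic acid array of batch 1.

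Cell cycle genes were higher with retinoic acid in 22 of 33 and with IL-1α in 0 (median 0.68). Against untreated, IL-1α lowered 19 of the list, while retinoic acid raised 4 and lowered 1. Thymidine kinase (Tk1), which makes DNA precursors, read 8.15, 8.30, 7.42 and 7.63 with retinoic acid, 6.78, 6.75, 5.87 and 5.87 with IL-1α and 7.18, 7.60, 7.41 and 6.62 untreated. The treatments did not overlap, with a difference of 1.56 (SE 0.17, adjusted p = 1.17e-05), and stood at 0.67 with retinoic acid and -0.88 with IL-1α from untreated. The mitotic survivin gene Birc5 (difference 1.28, adjusted p = 4.28e-05) and the replication helicase gene Mcm5 (difference 1.25, adjusted p = 6.67e-05) were also higher with retinoic acid. The proliferation antigen Mki67 was 0.19 in batch 1 and 1.54 in batch 2 (difference 0.87, adjusted p = 0.00842), and 19 of the list differed in effect between batches. The list count was 14 without the first IL-1α array, without the second IL-1α array or without the first retinoic acid array of batch 2, and 12 with no filter on detection. Of the 21 members detected on all arrays, 16 were higher with retinoic acid.

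Genes of ER chaperones and collagen secretion were higher with IL-1α in 18 of 37 and with retinoic acid in 4 (median -0.34), and the IL-1α count was 11 with median scaling. Retinoic acid lowered 21 of them below untreated and IL-1α 10. Leprel1, which hydroxylates proline in collagens, gave a difference of -2.06 (adjusted p = 4.04e-06), the ER degradation factor Herpud1 -1.54 (adjusted p = 7.6e-07) and the stress transcription factor Ddit3 -1.27 (adjusted p = 4.07e-05). Higher with retinoic acid were Loxl1, which crosslinks elastin (difference 1.96, adjusted p = 1.65e-07), and the lysyl hydroxylase Plod1 (difference 0.62, adjusted p = 0.000933).

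Of 21 cholesterol synthesis genes 9 were higher with retinoic acid and 0 with IL-1α (median 0.31). The sterol reductases Tm7sf2 (difference 1.5, adjusted p = 0.000224) and Hsd17b7 (difference 1.03, adjusted p = 7.18e-06) and the sterol sensor Insig1 (difference 1.19, adjusted p = 0.00962) had the largest differences. Retinoic acid raised 10 of the list above untreated and IL-1α 3. For glycolysis and the hypoxia response the counts were 11 and 3 of 25. The glucose carriers parted, with Slc2a3 higher with retinoic acid (difference 1.26, adjusted p = 8.47e-05) and Slc2a1 with IL-1α (difference -1.03, adjusted p = 0.00017). Adrenomedullin (Adm), a vasodilator peptide induced by low oxygen, gave a difference of 0.88 (adjusted p = 0.0067). Pfkfb3, which drives glycolysis, gave a difference of -0.75 (adjusted p = 0.00168) and the hypoxia-responsive Ndrg1 -0.74 (adjusted p = 0.00118), and both calls were lost with median scaling (adjusted p = 0.0678 and 0.0573). In the respiratory chain 6 of 39 were higher with retinoic acid, a share near that of all genes, with Cox5b, a subunit of cytochrome oxidase, at 0.55 (adjusted p = 0.00364). That count was 2 without the first retinoic acid array of batch 1, and 3 without the second IL-1α array of batch 1 or the first of batch 2.

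Markers of the other cells that a femoral head can hold were examined as lists, and their part in the results above was not tested. Endothelial markers moved together, with 13 of 16 higher with retinoic acid and 1 with IL-1α (median 1.10). Of the 11 detected on all arrays, 9 were higher with retinoic acid. Their summed linear intensity was 6290 to 7220 with retinoic acid, 2510 to 3550 with IL-1α and 5200 to 6050 untreated, and every member was detected. IL-1α lowered 11 of the list below untreated, and retinoic acid raised 5. The VEGF receptor Flt1 differed by 1.64 (adjusted p = 3.08e-06), the guidance receptor Robo4 by 1.61 (adjusted p = 7.4e-06) and endomucin (Emcn) by 1.42 (adjusted p = 7.85e-07). Emcn read 9.81, 9.79, 10.39 and 10.37 with retinoic acid, 8.49, 8.57, 8.79 and 8.81 with IL-1α and 9.46, 9.55, 9.78 and 10.02 untreated, with all IL-1α arrays below all others. The exception, Vwf, the clotting factor carrier of endothelial cells and platelets, was higher with IL-1α (difference -0.56, adjusted p = 0.0224), a call lost with median scaling (adjusted p = 0.0934) and when either retinoic acid array of batch 1 or the second IL-1α array of either batch was left out (adjusted p = 0.0511 to 0.0969). This list moved in the same direction as Cxcl12, Vegfa and Col4a5, while Icam1 (-3.38), Col15a1 (-0.79) and Col18a1 (-0.50) went the other way.

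Of 17 macrophage and osteoclast markers 7 were higher with retinoic acid and 0 with IL-1α, and 1 of the 6 detected on every array was higher with retinoic acid. The summed intensity was 10900 to 13100 with retinoic acid, 7430 to 10800 with IL-1α and 9870 to 10600 untreated, with Itgam, Cd163 and Msr1 undetected on all arrays. The gap lay mostly in batch 2, where the sums were 13100 and 12400 with retinoic acid against 7430 and 7530 with IL-1α. In batch 1 they were 10900 and 11100 against 10800 and 10600, with 9870 and 9990 untreated. The effect differed between batches for 7 of the 17. Lysozyme (Lyz2), which macrophages and neutrophils share, gave a difference of 1.45 (adjusted p = 5.41e-05) and the macrophage protein gene Aif1 1.71 (adjusted p = 2.03e-07). The 3 C1q genes moved in this direction too. The count was 3 or 4 when either IL-1α or either retinoic acid array of batch 2 was left out, and 3 with no filter on detection.

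Neutrophil and mast cell markers leaned to IL-1α, with 8 of 14 against 1 with retinoic acid (median -0.92). Elastase (Elane) differed by -2.39 (adjusted p = 0.000505), myeloperoxidase (Mpo) by -2.26 (adjusted p = 0.00235) and the granule protein gene Ngp by -1.97 (adjusted p = 9.21e-05), and the IL-1α level of each did not pass the test against untreated (0.94, 0.16 and 0.71, adjusted p = 0.0985, 0.833 and 0.0646). These 3 are granule genes of developing neutrophils. The list also holds Lcn2, described with the acute-phase genes. The list's summed intensity was 13900 to 18900 with retinoic acid, 33400 to 36500 with IL-1α and 17900 to 27100 untreated. Lcn2 lay near the top of the scale with IL-1α, so it can weigh heavily in this linear sum. The effect differed between batches for 9 of the 14. The mast cell proteases Cpa3, Cma1 and Mcpt4 were undetected on every array, and the stem cell factor receptor Kit was higher with retinoic acid (difference 1.36, adjusted p = 0.000155).

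Lymphocyte markers were nearly absent. Of 14 on the array 3 were kept, and Cd3d, Cd3e, Cd4, Cd8a and Ptprc were undetected on all arrays. The B-cell receptor subunit gene Cd79b was higher with retinoic acid (difference 0.87, adjusted p = 0.00846) and the cytotoxic granule gene Nkg7 with IL-1α (difference -1.35, adjusted p = 0.00209), and the summed intensity was 238 to 342 with retinoic acid, 141 to 396 with IL-1α and 130 to 268 untreated. Adipocyte markers gave 5 and 3 of 10, while Fabp4, Lep and Retn were undetected. Pparg, the receptor that drives fat cell formation, read 8.39, 8.54, 8.41 and 8.04 with retinoic acid, 6.10, 5.65, 5.65 and 5.46 with IL-1α and 6.65, 6.66, 6.65 and 6.44 untreated. The groups did not overlap, and it differed by 2.63 (SE 0.12, adjusted p = 6.86e-09). Lipoprotein lipase (Lpl) gave a difference of 1.11 (adjusted p = 0.00147) and the desaturase Scd1 0.63 (adjusted p = 0.00392), whereas the triglyceride enzyme Dgat2 (difference -1.95, adjusted p = 4.57e-08), the lipid droplet protein gene Cidea (difference -0.92, adjusted p = 0.000498) and the transcription factor Cebpa (difference -0.82, adjusted p = 7.89e-05) were higher with IL-1α. The adipocyte sum was 3420 to 4800 with retinoic acid, 3080 to 3610 with IL-1α and 5160 to 5640 untreated.

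Osteoblast markers were low after both treatments. Their sum was 10300 to 12500 untreated, 2810 to 5150 with IL-1α and 3020 to 4600 with retinoic acid, 7 and 7 of 8 fell with retinoic acid and with IL-1α, and Dmp1 and Sost were undetected. Between the treatments 1 was higher with retinoic acid, the Phex gene given above, and 1 with IL-1α. Synovial and fibrous tissue markers counted 6 and 3 of 11, with sums of 7220 to 12100 with retinoic acid, 6030 to 6960 with IL-1α and 6990 to 9770 untreated, and Thbs4 and Cd248 undetected. The growth factor receptors Pdgfra (difference 1.83, adjusted p = 2.04e-05) and Pdgfrb (difference 1.39, adjusted p = 6.36e-06) and smooth muscle actin (Acta2, difference 1.68, adjusted p = 3.76e-05) were higher with retinoic acid. Podoplanin (Pdpn), a surface protein of lining fibroblasts (difference -2.05, adjusted p = 1.37e-08), and the tendon transcription factors Scx (difference -0.96, adjusted p = 0.000588) and Mkx (difference -0.75, adjusted p = 0.000419) were higher with IL-1α. Of 10 erythroid and muscle markers 3 were higher with IL-1α and 1 with retinoic acid, sums were 19400 to 32300, 25500 to 34600 and 24500 to 29300 in the same order, and Ckm, Myh1 and Mb were undetected. The red cell anion exchanger gene Slc4a1 was -2.45 in batch 1 and -0.25 in batch 2 (difference -1.35, adjusted p = 0.0103).

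**Figure D4:**
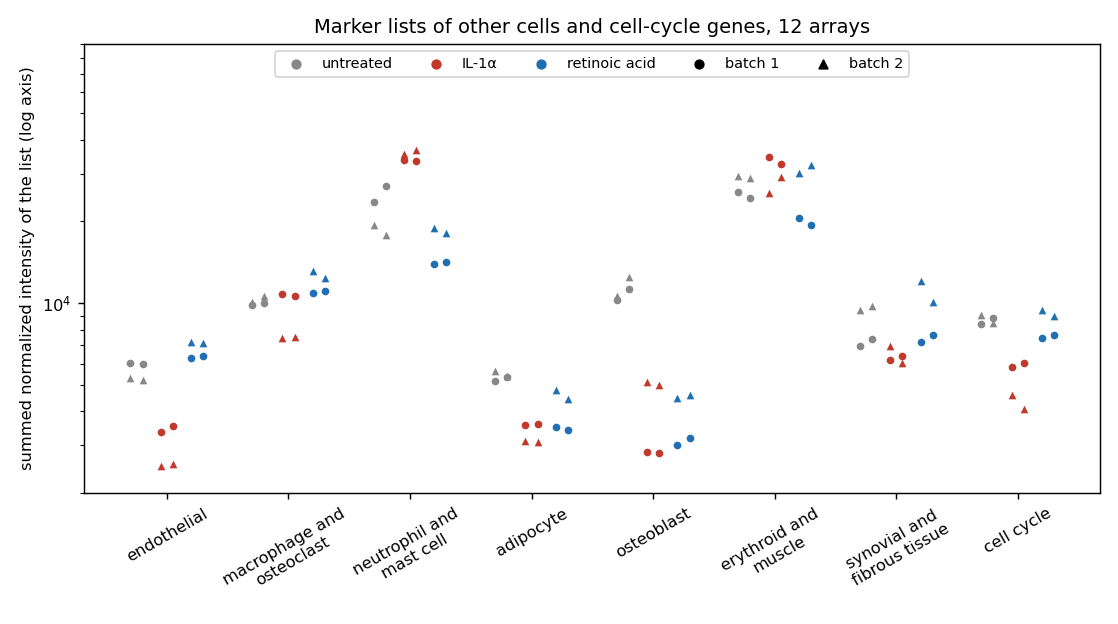
Summed linear intensity of the detected members of 7 marker lists of other cell types and of the cell cycle list, 1 point an array, by treatment and batch, on a log axis. The endothelial sum is 2510 to 3550 with IL-1α, below all arrays of the other groups, and the osteoblast sum is 10300 to 12500 untreated, above all treated arrays.

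The batches changed the size of many differences. The gap between the treatments was not equal in both batches for 1268 of 14269 genes (8.89%). The named gene with the largest gap was the interferon-induced T-cell attractant Cxcl9, which read 4.79, 4.63, 4.68 and 4.62 with retinoic acid, 9.56, 9.43, 5.08 and 5.09 with IL-1α and 4.91, 5.11, 4.78 and 4.8 untreated. IL-1α arrays were high in batch 1 and just above undetected in batch 2, so the difference was -4.78 in batch 1 and -0.44 in batch 2 (gap 4.34, adjusted p = 2.25e-08). Saa3, the serum amyloid of cartilage and macrophages, read 12.79, 12.67, 8.29 and 8.57 with retinoic acid, 14.04, 14.13, 13.89 and 13.89 with IL-1α and 13.66, 13.66, 12.95 and 12.53 untreated. Here the IL-1α arrays were near the top of the scale in both batches and the retinoic acid arrays of batch 2 were low, with -1.35 and -5.46 (gap -4.11, adjusted p = 1.89e-07). The eosinophil granule genes Ear6 and Prg2 were higher with IL-1α by more in batch 1, Ear6 with -4.77 and -0.96 and Prg2 with -4.46 and -1.43. Mterfd2, of the mitochondrial transcription termination factor family, was higher with retinoic acid by 4.57 in batch 1 and 1.06 in batch 2. Each of the 5 kept its direction in both batches. Since batch is also mouse line, line, batch and any difference between the cultures cannot be told apart.

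**Figure D5:**
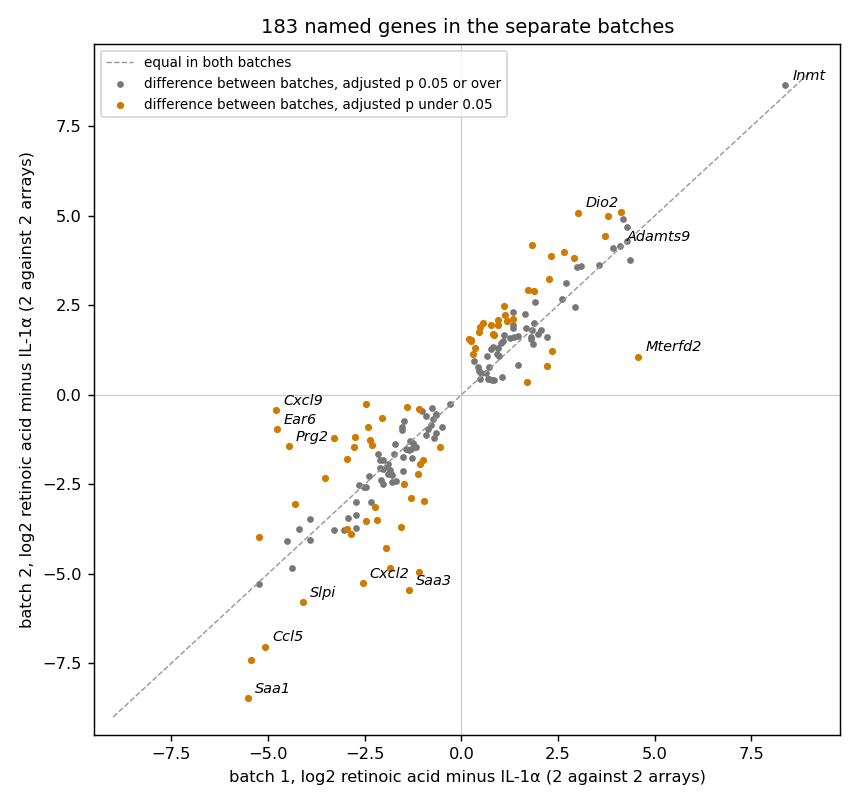
Log2 difference of retinoic acid minus IL-1α in batch 2 (vertical) against that in batch 1 (horizontal), 1 point for each of the 183 genes named in the text, orange where the gap between batches passed the test, with a dashed line where both are equal. Saa3 lies at -1.35 and -5.46 and Cxcl9 at -4.78 and -0.44, while Inmt is at 8.37 and 8.65.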

How the data were processed

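The authors deposited probe intensities from 12 Illumina mouse bead arrays, linear and neither background-corrected nor normalized, with a detection score per probe. The deposited scores rise with intensity and carry a p-value name, so the detection p was taken as 1 minus that score. The software before that is not given in the sources used here. With limma 3.58.1 in R 4.3.3, background was estimated from detection p and corrected, and an offset of 16 was added. Arrays were then quantile normalized and log2 taken. The study's methods name limma's neqc function with quantile normalization, and they give no offset. Probes detected at p under 0.05 on at least 4 of 12 arrays were kept (18200 of 46632). The model was fitted to all 12 arrays and held treatment and a block of batch and replicate with 4 levels. Adjusted p is limma's, Benjamini-Hochberg over all kept probes, called under 0.05. A further model crossed treatment with batch. A fold with "at least" sets the bright group's mean against the higher of the lowest detected signal (4.86 to 5.48) and the probe's own.

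A gene is its brightest kept probe. Leading genes are the 10 largest differences each way, with values from the probe of the largest difference, with 1 sign in all 4 pairs of arrays, where 1 clone symbol each way was passed over. Lists contribute up to 3 called members each way, and the 5 genes with the largest batch gap were added. Members and lists were chosen with earlier results of these data known. Of 203 genes so chosen, 18 that lost their call with 1 array left out are not named and 2 others are not reported here. Some older array symbols of list genes are given by current names matched in RefSeq. Leading genes and those added for their batch gap keep the array's symbol, which may be an older one. The functions were tested on simulated data. Same-numbered arrays within a batch correlated between -0.108 and 0.391 in their deviations, which does not show that the numbers pair them. The block, which does pair them, was kept because the study's methods name it. The number of arrays limits the precision. Alternatives were other background, scaling, filters, blocks and left-out arrays.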

Additional observations from a re-analysis of the deposited data

Results flagged for a closer look

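The difference between treatments was not equal in the 2 batches for 71 of the 183 genes named, by limma's test of treatment by batch at an adjusted p under 0.05. The values that follow are the difference (retinoic acid minus IL-1α) in batch 2 minus that in batch 1, on the log2 scale. Genes higher with retinoic acid in both batches, by more in batch 2, were Rarb 2.34, Dio2 2.06, Cxcl12 1.54, Arg1 1.43, Insig1 1.40, Ppbp 1.38, Mki67 1.35, C1qb 1.34, Lpl 1.30, Adm 1.29, Cd79b 1.25, Igfbp3 1.22, Thsd4 1.20, Kit 1.19, Col8a1 1.14, Acta2 1.10, Lyz2 1.02, Dkk3 1.00, C1qa 0.97, Cyp26a1 0.96, Ccl6 0.96, Ccl24 0.92, Mcm5 0.88, Robo4 0.87, Il18bp 0.85, Slc2a3 0.83, Stra6 0.79 and Gdpd5 0.73. Genes higher with retinoic acid in both, by more in batch 1, were Mterfd2 -3.51, Tm7sf2 -1.42, Alpl -1.34 and Wnt4 -1.10. Higher with IL-1α in both batches, by more in batch 2, were Saa3 -4.11, Ucma -3.83, C3 -2.99, Saa1 -2.95, Cxcl2 -2.72, Cfb -2.31, Cxcl1 -2.12, Lcn2 -1.99, Saa2 -1.97, Ccl5 -1.96, Slpi -1.69, Panx3 -1.59, Mt2 -1.30, Rarres1 -1.09, Slc7a11 -1.05, Icam1 -1.04, Nqo1 -0.99, Trps1 -0.92, Hp -0.90, Nfkbiz -0.86, Il1rn -0.83 and Col27a1 -0.79. Higher with IL-1α in both, by more in batch 1, were Cxcl9 4.34, Ear6 3.82, Prg2 3.03, Slc4a1 2.21, Mpo 2.08, Ngp 1.55, Tap1 1.51, Nkg7 1.42, Csf3 1.31, Calca 1.24, Slc7a2 1.24, Gdf15 1.20, Elane 1.16, H2-Eb1 1.09, Wnt9a 1.07, Hmox1 0.91 and Pfkfb3 0.69. Each of these values rests on 2 arrays per treatment and batch. The Hp value is that of its brightest probe, and its dimmer detected probe did not pass this test (adjusted p = 0.192). Batch and mouse line cannot be told apart here.

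In 8 of 549 groups of 4 arrays (183 genes in 3 treatments) 1 array stood apart from the other 3 by Dixon's criterion. Groups of 4 values from 1 normal distribution meet it in about 1 in 20 cases. Each group here holds 2 arrays of each batch, so that rate need not apply. Igfbp2 read 4.71 on the IL-1α array of batch 2, replicate 2, against 4.49 to 4.52 on the other arrays of that group. Orm1 read 4.67 on the retinoic acid array of batch 2, replicate 2, against 4.8 to 4.83 on the other arrays of that group. Igfbp2 and Orm1 were undetected on every array of these groups. Gata6 read 5.36 on the IL-1α array of batch 2, replicate 1, against 4.94 to 4.99 on the other arrays of that group. Icam1 read 12.67 on the IL-1α array of batch 2, replicate 2, against 13.03 to 13.07 on the other arrays of that group. Ccl9 read 8.73 on the retinoic acid array of batch 2, replicate 1, against 8.89 to 8.92 on the other arrays of that group. Slc2a1 read 12.09 on the untreated array of batch 2, replicate 2, against 11.53 to 11.61 on the other arrays of that group. Pparg read 6.44 on the untreated array of batch 2, replicate 2, against 6.65 to 6.66 on the other arrays of that group. Acta2 read 11.34 on the untreated array of batch 1, replicate 1, against 11.48 to 11.49 on the other arrays of that group.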

How the results depend on the processing

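No gene named reversed its direction under any alternative run, and 141 of the 203 genes chosen by the naming rule kept direction and call under every setting that kept them. Left out in turn, single arrays gave 1845 to 2297 genes higher with retinoic acid, 1871 to 2432 higher with IL-1α, 2082 to 2706 above and 2092 to 2595 below untreated with retinoic acid, and 1440 to 2241 above and 1514 to 2159 below untreated with IL-1α. Genes whose effect differed between batches, 1268 in all, ranged from 533 to 1697, with 533 and 549 without the first or second retinoic acid array of batch 1, 621 and 538 without the IL-1α arrays of batch 1, 558 and 649 without the retinoic acid arrays of batch 2 and 579 without the second IL-1α array of batch 2. Median scaling gave 1149 genes higher with IL-1α, 1493 below untreated with retinoic acid, 1248 above and 1308 below untreated with IL-1α, and 2070 that differed between batches. Requiring detection on all 12 arrays left 763 of the last kind. With treatment alone in the model the counts were 881 higher with retinoic acid and 795 with IL-1α, 887 above and 983 below untreated with retinoic acid, and 482 above and 604 below with IL-1α, and 57 of the 203 genes lost their call. A difference over 1 left 724 and 540. With no filter 21 of the 203 lost their call, among them Cxcl9 (adjusted p = 0.133), Insig1 (adjusted p = 0.103), Slc4a1 (adjusted p = 0.112), Mpo (adjusted p = 0.0517), Mki67 (adjusted p = 0.077), Adm (adjusted p = 0.0658), Il18bp (adjusted p = 0.06), Cd79b (adjusted p = 0.0773), Vwf (adjusted p = 0.102) and Ear6 (adjusted p = 0.0501). Median scaling ended the call of 13, among them Hoxd8, Wnt9a, Ccn4, Pfkfb3, Ndrg1 and Vwf, the fit on the 8 treated arrays alone of 8, an offset of 50 of 4, and no background correction of 1. The call of Vwf was also lost with 1 array left out. The causes of these shifts were not tested.

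The model with batch alone and no replicate block called 2388 genes higher with retinoic acid and 2460 with IL-1α, and 2 of the 203 genes lost their call. Dim probes have only a bound, and probes near 14.24, the highest value of every array, can hide differences.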
